A study of Mus musculus with 7 samples.

Results

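Complex I of the mitochondrial respiratory chain was represented here by the nuclear genes of its subunits, chosen by symbol: Nduf, then a, b, c, s or v, then a number. This rule found 37 genes among the 21154 named genes on the array, measured by 43 probes, and all 37 passed the filter on dim signal. Assembly factors (Ndufaf genes) and the carrier protein gene Ndufab1 fell outside the rule. Among the 37, Ndufa4 carries a complex I name but its product is now counted as a subunit of complex IV, and Ndufa4l2 is its relative. The reference genes Ndufb1, Ndufb4b and Ndufb4c, and the subunits encoded on mitochondrial DNA, matched no probe and are not analysed here.

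Signals came from the heart apex of 7 male C57BL/6 mice, 4 controls and 3 knockouts (KO), each hybridised to a 1-colour Agilent array. Every mouse was homozygous p38α flox/flox, meaning that exons 2 and 3 of Mapk14, the gene of the stress kinase p38α, were flanked by loxP sites. KO mice were in addition heterozygous for α-MHC mercremer, a Cre recombinase switched on by hydroxytamoxifen and driven by a promoter active in cardiomyocytes. Both groups were given hydroxytamoxifen (500 µg a day for 10 days from 6 weeks of age) and, before harvest at 3 months, 48 hours of angiotensin II, a pressor hormone, by osmotic minipump at 1.5 mg/kg a day. No mouse without angiotensin II was included, and Cre was carried by the KO group alone, so its effect and that of the deletion cannot be told apart. The study's design text names 4 hearts a group; the remaining KO heart was not analysed here. Nothing in the labels beyond the heart and its number ties a sample to an animal, so the p-values measure the spread between these hearts.

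Complex I takes electrons from NADH, passes them through a flavin and a chain of iron-sulphur clusters to ubiquinone, and uses the energy to pump protons. Its N module binds NADH, its Q module reduces ubiquinone, and its membrane arm, with a proximal and a distal part, pumps. The core subunits carry out catalysis, the accessory subunits surround and stabilise them, and the adult heart, which lives largely on fatty acids, is rich in the complex.

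The 7 arrays shared a slide. On each, 46.0% to 49.7% of 55681 probes gave a signal well above background; 0 member probes were saturated. Values are log2 signals relative to the 75th percentile of their own array and compare hearts for 1 gene, not genes with each other. Mapk14 read 3.52, 3.40, 3.47 and 3.67 in controls 1 to 4 and 3.74, 3.76 and 3.71 in KO hearts 1 to 3, a difference of 0.22 ± 0.12 (SE, limma adjusted p = 0.202). The KO hearts lay slightly above every control. The position of its probe within the transcript is not given in the sources used here, so it does not check the deletion.

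Transcripts of complex I subunits were lower in KO hearts as a body. Of the 37 genes 34 fell and 0 rose (limma, Benjamini-Hochberg adjusted over 22341 features, threshold 0.05), and 3 did not pass. Over all features 15.0% were lower and 10.2% higher by the same rule. The median KO minus control difference was -0.73 on the log2 scale over the members and -0.06 over all features, and single members ran from -1.17 to -0.25. In 37 of 37 genes all KO hearts lay below all control hearts, against 21.3% of all features. Member probes were mostly bright: 36 of 37 had a mean value of 5 or more, and of all features that bright 26.3% were lower, a bound on level set after the values were seen. In bulk tissue fewer cardiomyocytes and less RNA per cell cannot be told apart.

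The number of genes past the threshold changed when single hearts were left out. It fell to 0 without KO heart 1 and was 6 without KO heart 2, 23 without KO heart 3, and 19, 36, 14 and 11 without controls 1, 2, 3 and 4. Calls over the whole array moved with it: the share of all features called lower was 0.219%, 3.77% and 14.6% without KO hearts 1, 2 and 3, and 8.91%, 18.5%, 7.79% and 6.48% without controls 1 to 4. The median difference stayed between -0.82 and -0.65 over these fits. Its sign and the lack of overlap could not change, since the groups of 37 of 37 genes were apart with all hearts in.

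**Figure D1:**
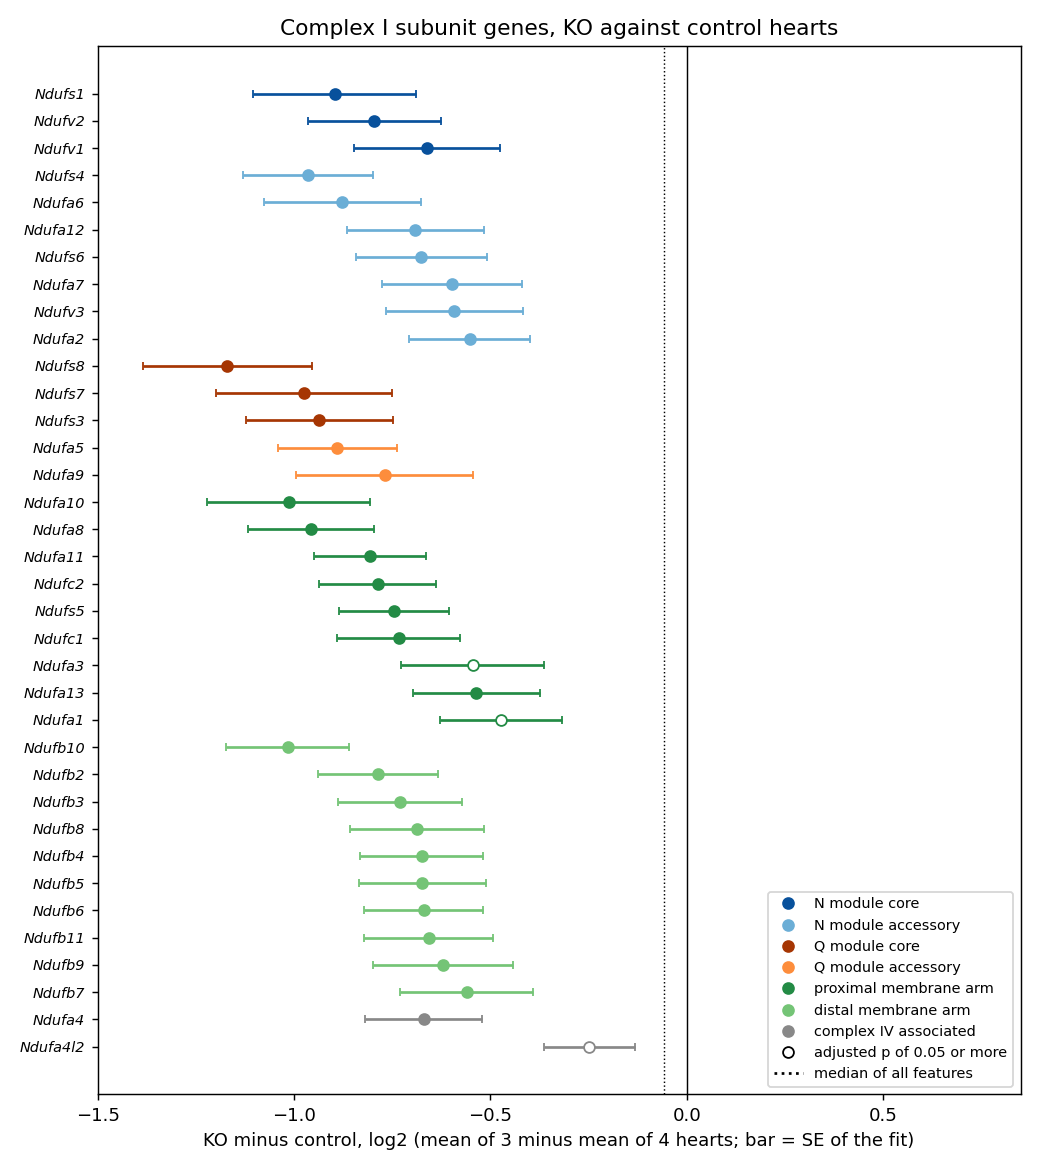
KO minus control difference on the log2 scale for 36 of the 37 genes, grouped by the part of the complex; points are fitted differences, bars the SE of the fit, open points genes that did not pass, and the dotted line the median of all features at -0.06. Every point lies left of 0, from Ndufs8 at -1.17 to Ndufa4l2 at -0.25.

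The lowest control was the same for every member, and the lowest KO heart was the same for most. Control 2 was the lowest control for 37 of 37 genes, with a median deviation of -0.34 from the control mean. Control 1 lay at -0.03, and controls 3 and 4 lay highest, at 0.19 and 0.17. The highest value of all 7 hearts was that of control 3 for 19 genes and of control 4 for 18. KO hearts 1, 2 and 3 lay at -0.81, -0.69 and -0.72. KO heart 1 was the lowest of all 7 for 31 genes and KO heart 3 for the other 6. So even the lowest control stood above the highest KO heart for each gene, and the controls were spread wider than the KO hearts: the median SD of a member was 0.248 over controls and 0.109 over KO hearts, against 0.240 and 0.216 over all features.

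The scaling of the arrays and the position on the slide both moved with part of this spread. The log2 75th percentile subtracted was 8.634, 8.88, 8.419 and 8.608 in controls 1 to 4, the reverse of their order by median deviation. In KO hearts 1 to 3 it was 8.755, 8.725 and 8.633, where the order was not fully reversed. The part of scaling in the ranking of the hearts was not tested. Controls 1 and 2 and KO heart 1 lay in row 1 of the slide, and the other hearts in row 2, where the controls were higher. Within row 1 the median difference was -0.67 (2 controls, 1 KO heart) and within row 2 it was -0.84 (2 controls, 2 KO hearts). In each row 37 of 37 differences were below 0. That sign was fixed, since for each gene all KO hearts lay below all controls, so it does not check the position.

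**Figure D2:**
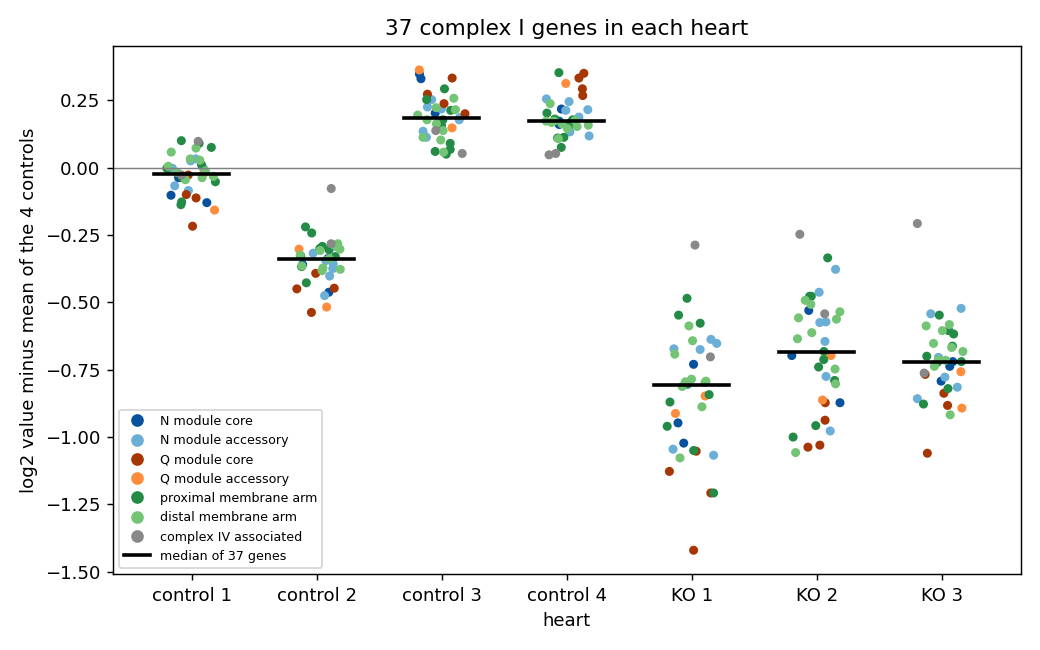
Deviation of each of the 37 genes from its mean over the 4 controls, on the log2 scale, in each heart; points are genes coloured by part of the complex and bars are medians. The medians are -0.03, -0.34, 0.19 and 0.17 in the controls and -0.81, -0.69 and -0.72 in the KO hearts.

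Since these genes moved together, their promoters were read for short motifs of factors known to act on mitochondrial genes. RefSeq windows of GRCm38.p6, from 250 bases before to 50 after the start site, matched 32 of the 37 genes (34 windows). The match of the factor YY1, AAGATGGC on either strand, was in 7 member windows (20.6%) and in 2.75% of all 32851 windows. All 7 lay on the sense strand between positions 23 and 39 after the start. A sense-strand match anywhere after the start, a placement looked at after the matches were seen, was found in 284 of all windows (0.865%). The stretches are shown because they share these letters on the same strand shortly after the start, with the match in capitals. The windows end 50 bases after the start, which bounds these positions. The letters include ATG, and whether they span the start of translation was not tested. They lie at chr7:3617384-3617413 (plus strand, Ndufa3), chr6:126849097-126849126 (minus, Ndufa9), chr19:44555393-44555422 (minus, Ndufb8), chr3:51408915-51408944 (minus, Ndufc1), chr13:114388045-114388074 (minus, Ndufs4), chr13:73328433-73328462 (minus, Ndufs6) and chr10:80249462-80249491 (plus, Ndufs7).
Ndufa3: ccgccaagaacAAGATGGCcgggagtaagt
Ndufa9: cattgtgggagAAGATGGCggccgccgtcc
Ndufb8: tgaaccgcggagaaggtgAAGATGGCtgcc
Ndufc1: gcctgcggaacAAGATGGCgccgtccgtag
Ndufs4: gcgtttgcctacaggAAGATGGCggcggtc
Ndufs6: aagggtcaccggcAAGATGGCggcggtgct
Ndufs7: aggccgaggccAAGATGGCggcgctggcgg
The 7 genes had a median difference of -0.73 (range -0.98 to -0.54), and the 25 other genes with a window had a median of -0.73 (range -1.17 to -0.47). A match is a run of letters and not a measured binding site.

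Other motifs were rarer among the members. The core letters of NRF1, GCGCATGC, were in the windows of Ndufa11, Ndufa6 and Ndufa8 (8.82% of member windows, 2.71% of all), and the cyclic AMP response element, TGACGTCA, in those of Ndufa10, Ndufa11 and Ndufb2 (8.82% and 1.79%). Ndufa11, which encodes a membrane arm subunit, held both and is shown for that. Its NRF1 letters occur on both strands in overlap and so fill 10 capitals. The extended half-site of the oestrogen-related receptors, TNAAGGTCA, was in 1 window, that of Ndufb4 (2.94% and 1.28%). The ETS letters CCGGAAG were in 4 windows (11.8% and 8.86%), and the TATA box letters TATAAA in 5 windows of 4 genes (14.7% and 13.6%). The sequences run from 250 bases before the start site up to it, at chr17:56717512-56717761 (plus strand, Ndufa11) and chr16:37654369-37654618 (minus strand, Ndufb4), with the matches in capitals.
Ndufa11: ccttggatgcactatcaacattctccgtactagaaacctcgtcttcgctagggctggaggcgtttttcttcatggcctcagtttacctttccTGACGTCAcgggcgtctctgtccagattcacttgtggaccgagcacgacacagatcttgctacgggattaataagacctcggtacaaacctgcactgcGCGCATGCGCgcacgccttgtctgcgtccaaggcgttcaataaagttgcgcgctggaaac
Ndufb4: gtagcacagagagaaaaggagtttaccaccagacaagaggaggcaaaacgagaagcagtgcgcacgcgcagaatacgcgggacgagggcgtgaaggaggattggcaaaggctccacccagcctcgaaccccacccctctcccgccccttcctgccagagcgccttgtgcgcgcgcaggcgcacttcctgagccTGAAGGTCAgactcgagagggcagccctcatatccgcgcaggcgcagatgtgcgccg

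The N module, where NADH is oxidised, was lower throughout. All 10 of its genes on the array fell, with a median difference of -0.68. Ndufv1 encodes the subunit that binds NADH and the flavin. It read 8.47, 8.24, 8.93 and 8.76 in controls 1 to 4 and 7.87, 8.07 and 7.88 in KO hearts 1 to 3. The groups did not overlap, though control 2 stood only a little above KO heart 2, and the gene fell by 0.66 ± 0.19 (SE, limma adjusted p = 0.0373). Its partner Ndufv2, which holds an iron-sulphur cluster, read 7.47, 7.17, 7.71 and 7.68 in controls and 6.56, 6.81 and 6.77 in KO hearts. Every KO heart was below the lowest control, control 2, and the gene fell by 0.80 ± 0.17 (adjusted p = 0.0185).

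Ndufs1, the large iron-sulphur subunit of the same module, read 7.46, 7.10, 7.91 and 7.78 in controls and 6.54, 6.69 and 6.77 in KO hearts. Controls 3 and 4 were high and control 2 low, without overlap with the KO hearts, and the gene fell by 0.90 ± 0.21 (adjusted p = 0.0223). Ndufs4, an accessory subunit added late in assembly and the gene behind a mouse model of Leigh syndrome, had the lowest p of the module. It read 6.45, 6.06, 6.53 and 6.63 in controls and 5.35, 5.44 and 5.56 in KO hearts. It was 1.95-fold lower in KO (0.96 ± 0.16 on the log2 scale, adjusted p = 0.0131), with every KO heart below control 2. The other accessory genes, Ndufa2, Ndufa6, Ndufa7, Ndufa12, Ndufs6 and Ndufv3, were lower by log2 differences from -0.88 to -0.55.

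Genes of the Q module, which hands electrons to ubiquinone, had the most negative median of the parts, -0.96, and all 6 fell. Ndufs8, an iron-sulphur subunit, showed the largest difference of any member. It read 5.46, 5.11, 5.76 and 5.91 in controls 1 to 4 and 4.14, 4.53 and 4.50 in KO hearts 1 to 3. KO heart 1 was the lowest and control 4 the highest, and the gene was 2.25-fold lower in KO (1.17 ± 0.22 on the log2 scale, SE, limma adjusted p = 0.0147).

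Ndufs7, which carries the iron-sulphur cluster next to the ubiquinone site, read 8.36, 7.85, 8.66 and 8.68 in controls and 7.26, 7.35 and 7.62 in KO hearts. Control 2 came closest to the KO hearts without reaching them, and the gene fell by 0.98 ± 0.22 (adjusted p = 0.0217). Ndufs3, a core subunit of this module without a cluster of its own, read 7.71, 7.43, 8.06 and 8.09 in controls and 6.77, 6.95 and 6.94 in KO hearts, and fell by 0.94 ± 0.19 (adjusted p = 0.0165). Among the 2 accessory genes, Ndufa5 had the lowest p. It read 8.75, 8.47, 8.92 and 8.95 in controls and 7.86, 7.91 and 7.88 in KO hearts, so that the KO hearts lay close together and apart from all controls. It fell by 0.89 ± 0.15 (adjusted p = 0.0131), and its second probe gave -0.88. Ndufa9, whose product has a dehydrogenase fold at the foot of the arm, fell by 0.77.

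Taken by role, all 7 core subunits encoded in the nucleus fell, with a median of -0.94 and a range of -1.17 to -0.66. Of the 28 accessory genes 26 fell, with a median of -0.69. These medians describe the lists, and the difference between core and accessory genes was not tested.

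**Figure D3:**
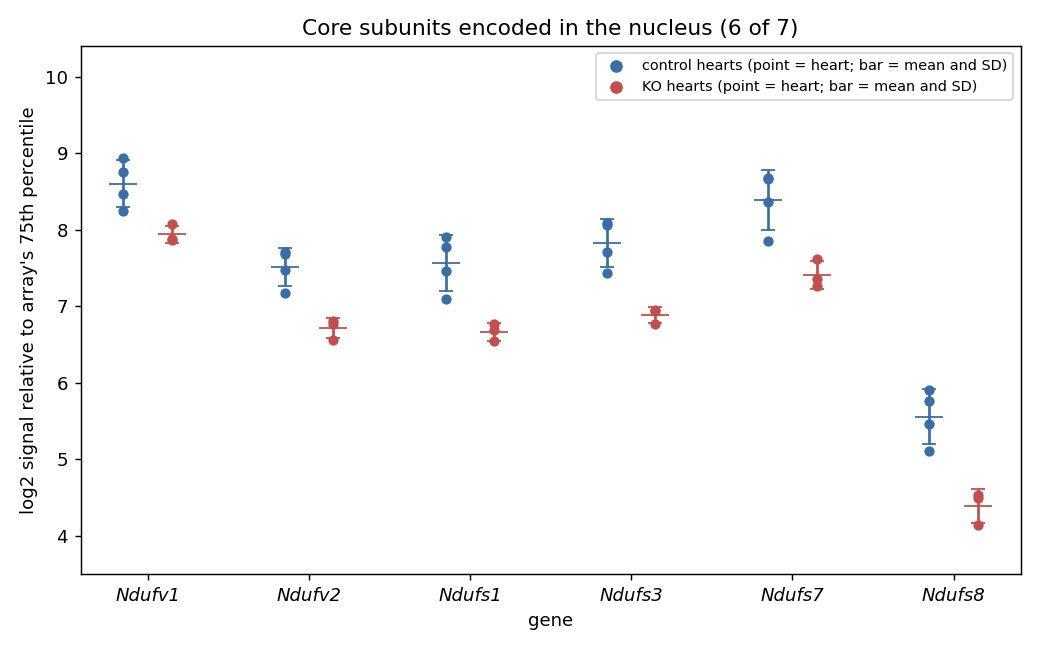
Log2 signal of 6 of the 7 core subunit genes relative to the 75th percentile of each array; points are hearts, bars the mean and SD of 4 control and 3 KO hearts. In each gene the KO hearts lie below the controls, with Ndufs8 at 5.56 ± 0.35 against 4.39 ± 0.22.

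Most genes of the proximal membrane arm, which joins the matrix arm to the proton pumps, were lower. Of 9 genes 7 fell, with a median of -0.75, and 2 did not pass. Ndufa8, a cysteine-rich subunit on the intermembrane face, had the lowest p of this part. It read 5.93, 5.51, 5.90 and 6.02 in controls 1 to 4 and 4.79, 4.84 and 5.02 in KO hearts 1 to 3. The gap from control 2 to the highest KO heart was wide beside the spread within KO, and the gene fell by 0.96 ± 0.16 (SE, limma adjusted p = 0.0126). Ndufa10, which resembles a nucleoside kinase, fell by 1.01. Ndufa11, Ndufc2, Ndufs5 and Ndufc1 had differences from -0.81 to -0.73, and Ndufa13, also known as GRIM-19, fell by 0.54.

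The 2 genes of this arm that did not pass are small subunits that cross the membrane. Ndufa3 read 8.10, 7.86, 8.52 and 8.43 in controls and 7.68, 7.75 and 7.61 in KO hearts, a difference of -0.54 ± 0.18 (adjusted p = 0.0608). Control 2 stood only just above KO heart 2. The X-linked gene Ndufa1 read 7.79, 7.41, 7.87 and 7.79 in controls and 7.23, 7.38 and 7.11 in KO hearts, a difference of -0.47 ± 0.16 (adjusted p = 0.0578). Here too control 2 and KO heart 2 nearly touched. With normexp background correction both passed, at limma adjusted p of 0.0294 and 0.0453. Over all alternatives Ndufa3 passed in 6 of 22 and Ndufa1 in 7 of 22. These counts include the looser threshold of 0.1, at which the main fit itself passes.

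Genes of the distal membrane arm, which carries the far proton pumps, fell in 10 of 10 cases, with a median of -0.67. Ndufb10, a cysteine-rich subunit, had the lowest p of all members. It read 8.81, 8.40, 8.85 and 8.89 in controls and 7.66, 7.68 and 7.82 in KO hearts. Control 2 was low among the controls but far above every KO heart, and the gene was 2.02-fold lower (1.02 ± 0.16 on the log2 scale, SE, limma adjusted p = 0.0123). The other 9 lay close together, between -0.79 for Ndufb2 and -0.56 for Ndufb7. Ndufb3 fell by 0.73, Ndufb8 by 0.69, Ndufb4 by 0.67, Ndufb5 by 0.67, Ndufb6 by 0.67, Ndufb11 by 0.66 and Ndufb9 by 0.62. A second probe was kept for Ndufa5, Ndufv3 and 4 genes of this arm, and every second probe read lower in KO. For Ndufb5 the choice of probe mattered most, since the dimmer one gave -1.10.

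Of the pair Ndufa4 and Ndufa4l2, the first fell and the other did not pass. Ndufa4 read 7.71, 7.33, 7.75 and 7.66 in controls and 6.91, 7.07 and 6.85 in KO hearts. It fell by 0.67 ± 0.15 (SE, limma adjusted p = 0.0206), with all KO hearts below control 2. Ndufa4l2, which is induced by hypoxia and better known from vessel wall cells, had the smallest difference of any member. It read 3.22, 3.17, 3.30 and 3.30 in controls and 2.96, 3.00 and 3.04 in KO hearts. The hearts of a group lay within a narrow range and did not overlap, yet the difference of -0.25 ± 0.12 did not pass (adjusted p = 0.139). It passed under 0 of 22 alternatives, and with median centring it was -0.16. The difference between the 2 genes was not tested.

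Many of the factors that assemble complex I were lower too. Of 19 genes 11 fell and 0 rose, with a median of -0.55 and a range of -1.22 to -0.08. Ndufaf1 and Tmem126b, which belong to an intermediate complex that builds the membrane arm, fell by 1.16 ± 0.19 and 1.04 ± 0.20. Ndufaf3, which acts on the Q module, fell by 1.22 ± 0.24, and Ndufaf6 by 0.94 ± 0.19 (SE; limma adjusted p from 0.0126 to 0.0163). Timmdc1 (-0.08), Tmem186 (-0.13) and Ndufaf7 (-0.25) were among the 8 that did not pass. Ndufab1, the acyl carrier protein counted in this list, was at -0.28 (adjusted p = 0.243).

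The other respiratory complexes stood near complex I. In complexes II to V 35 of 42 genes fell and 0 rose, with a median of -0.65. Complex II fell in 4 of 4 genes (median -0.76), led by Sdhd at -1.05, and complex III in 9 of 9 (median -0.78), with Cyc1, the gene of cytochrome c1, at -0.98. Complex IV fell in 9 of 14 (median -0.60), with Cox7a2 at -0.81, and complex V, the ATP synthase, in 13 of 15 (median -0.61), with Atp5d at -0.75. No difference between complex I and these lists was tested, so the fall of its subunits is not given as particular to it.

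**Figure D4:**
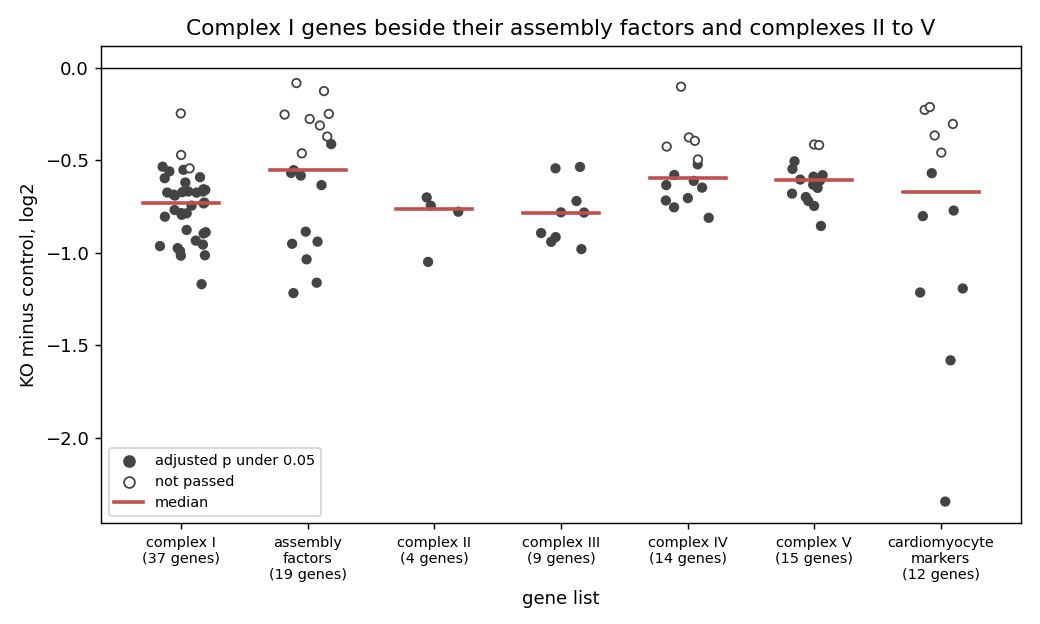
KO minus control difference on the log2 scale for single genes of complex I, its assembly factors, complexes II to V and cardiomyocyte markers; filled points passed an adjusted p of 0.05, open points did not, and bars are medians. All genes drawn lie below 0, with medians of -0.73 for complex I, -0.55 for assembly factors, -0.76, -0.78, -0.60 and -0.61 for complexes II to V and -0.67 for the markers.

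Among 14 regulators of mitochondrial genes 7 fell, 1 rose and 6 did not pass. Ppargc1a, which encodes the coactivator PGC-1α, read 4.87, 3.97, 4.82 and 4.60 in controls 1 to 4 and 2.04, 2.57 and 3.48 in KO hearts 1 to 3. The groups did not overlap, and the gene fell by 1.87 ± 0.36 (SE, limma adjusted p = 0.0153). Its relative Ppargc1b fell by 1.10. Esrrb and Esrra, nuclear receptors of the oestrogen-related family, fell by 1.65 and 0.84. Pprc1, another gene of the coactivator family, was the 1 that rose, by 0.91. The genes of 3 factors whose motifs were searched above did not pass: Nrf1 was at 0.31, Gabpa, of the ETS family, at -0.26, and Yy1 at -0.10. Ppara, Esrrg and Tfam, which packages mitochondrial DNA, fell by 0.96, 0.76 and 0.58.

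Markers of some cell types also differed between the groups. Of 12 cardiomyocyte markers 7 fell and 5 did not pass (Myl2, Myl3, Myh6, Actc1 and Tnnt2, at -0.46 to -0.21), and their summed signal, relative to the 75th percentile, was 6240 to 9080 in controls and 4990 to 5870 in KO hearts. Of 8 measured neutrophil markers 5 rose, with sums of 115 to 178 in controls and 103 to 179 in KO hearts. The bright probe of Csf3r, which did not pass, made up 80.1% to 98.2% of these sums. Without it they were 2.64 to 3.46 in controls and 25.2, 32.8 and 5.87 in KO hearts 1 to 3, and Mpo, Ngp and Retnlg failed the filter. Of the 5 that rose, Mmp9, Cxcr2 and Fpr1 passed the filter through the KO arrays alone, so their rise is not independent of the filter. Of 13 monocyte and macrophage markers 3 rose (sums 125 to 141 and 134 to 194), of 8 fibroblast markers 1 rose (347 to 609 and 294 to 690), and of 8 endothelial markers 1 fell (120 to 176 and 102 to 132). For the fibroblast and endothelial lists the share called, 12.5% each, was near that of all features (10.2% higher, 15.0% lower), and the sums overlapped between the groups. Of 8 measured liver genes 7 fell (7.32 to 16.1 and 4.08 to 5.50). Alb, Fgg, Fgb and Cyp2e1 were each well above background on 4 of 4 control and 0 of 3 KO arrays. These genes and Ttr passed the filter through the control arrays alone, so their fall is not independent of the filter. Serpina1a and Apoa2, which also fell (-3.77 and -0.95), were well above background on 4 of 4 control and 3 of 3 KO arrays. Apoa1 and Mup3 failed the filter. Of the fat markers only Cidea and Fabp4 passed the filter, and 1 of the 2 fell (165 to 221 and 115 to 174). Their part in the fall of the complex I genes was not tested.

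Without the 2 hearts that stood lowest in their groups, KO heart 1 and control 2, a choice made after seeing the data, 17 of 37 complex I genes fell, against 4.37% of all features in that fit, and the median was -0.79.

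**Figure D5:**
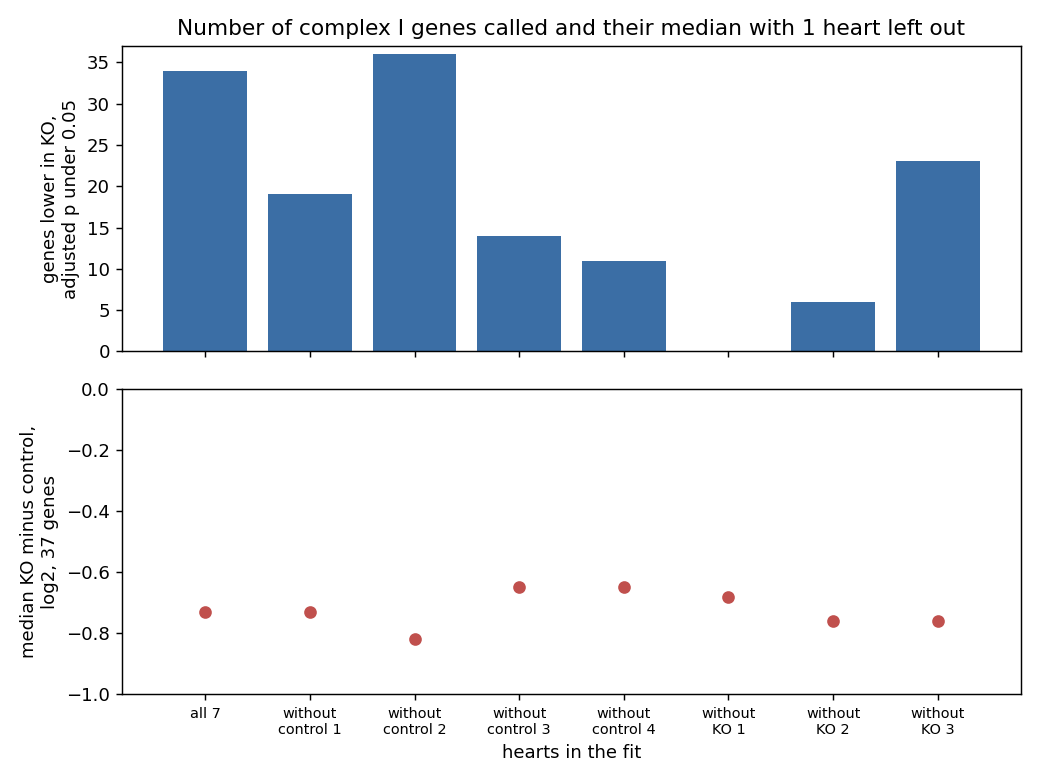
Number of complex I genes lower in KO at a limma adjusted p under 0.05 (bars, upper panel) and their median KO minus control difference on the log2 scale (points, lower panel), with all 7 hearts and with each left out. The number runs from 0 without KO heart 1 to 36 without control 2, while the median stays between -0.82 and -0.65.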

How the data were processed

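Per the file headers, the authors read the arrays with Agilent Feature Extraction 11.0.1.1 on a design annotated on mm9, and the deposited files hold intensity values of 62976 spots, 3671 of them controls. Labelling used 100 ng of RNA, per the labels. The background-subtracted intensity was turned to log2, the 75th percentile of non-control spots was subtracted, outlier spots were dropped and spots of a probe averaged. Probes were kept where 3 or more arrays of a group flagged them above background (26571 of 55681). Names came through RefSeq accessions matched to the GRCm38.p6 gene table: 28026 probes matched 1 symbol, 0 several and 27655 none. For each gene the brightest kept probe was used, giving 13696 named genes and 8645 unnamed probes. KO was compared with control with limma 3.58.1 in R 4.3.3 (lmFit, eBayes), and the fit was tested on simulated data. The members and lists were chosen with earlier results of these data known.

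Values by heart are given for the core subunits (1 member, counted in the totals, is not reported here by name), the gene of lowest p in each part, genes that did not pass, those of smallest and largest difference, Ndufa4 and Ndufa4l2; for other lists up to 4 genes of lowest p, to which genes outside that rule (Timmdc1, Tmem186, Ndufaf7, Ndufab1, Pprc1, Nrf1, Gabpa, Yy1, Ppara, Esrrg, Tfam and the cardiomyocyte markers that did not pass) were added after their values were seen. The authors' deposited value table holds log2 values; against the scanner values its columns correlated at 0.985 to 0.998 over 10000 probes, every row had a median of 0, and which target set its scale is unknown. Its column medians were 0 apart from 0.00790 for control 4 and -0.00212 for KO heart 2. The precision is limited by the number of arrays. The main fit did not treat replicate numbers as pairs. Correlations of same-numbered hearts were 0.18, -0.22 and -0.20, and those of differently numbered hearts ran from -0.32 to 0.39. So few values do not settle whether the hearts were paired. Alternatives were background correction (normexp, offset 50), scaling, filters, probe choice, variance models, slide row, threshold, the value table and each heart left out.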

Additional observations from a re-analysis of the deposited data

Results flagged for a closer look

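The value of Ndufc2 in control 2, 6.48, lay far below the other controls (6.88, 6.87 and 6.89): its gap to the nearest was 0.948 of the range of the 4. Of the 37 genes looked at, this was the only one past the critical value of Dixon's test, with Ndufb10, Ndufa1 and Ndufb6 just short of it at 0.824, 0.822 and 0.819. Chance marks about 1 in 20 independent groups in this way, but control 2 was the lowest control for 37 of 37 genes, so the genes are not independent groups. The KO hearts, at 5.91, 5.99 and 6.08, lay below it.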

How the results depend on the processing

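All 814 differences of single members under 22 alternative settings were below 0, from -1.32 to -0.16, and 0 members were called higher in any. Many of these signs could not change. Where 1 heart was left out, groups that did not overlap fixed the sign. Where only the variance model, the test or the threshold changed, the differences were those of the main fit or weighted forms of them. The number called lower, 34, was 29 to 36 with normexp, quantile or median centring, the 75th percentile over probes detected on all arrays, a filter on all arrays, the value table, other probe choices, trend and robust variance, array weights, slide row as a block or a threshold of 0.1. The share of all features called lower moved too. It was 11.9% with median centring, 21.6% with slide row, 22.1% at the threshold of 0.1 and 24% with array weights, against 15.0% in the main fit. The number of members called lower was 6 with no filter, where 975 of 48809 features were lower. It was 0 with an unmoderated test (lowest adjusted p 0.0525, 37 genes at an unadjusted p under 0.05, 0.291% of all features lower). With the replicate number as a block (replicate block) it was 0 (lowest limma adjusted p 0.0615, 30 at an unadjusted p under 0.05; median -0.65; 0.0134% of all features lower). Leaving out 1 heart gave 0 to 36; without KO heart 1 the lowest limma adjusted p was 0.065, with 36 genes at an unadjusted p under 0.05. Without KO heart 1 and control 2 it was 17. The cause of these losses was not tested. Groups failed to separate for 1 gene with normexp and with median centring.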
